A study of Mus musculus with 13 samples.

Results

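Collagen and laminin genes were examined in mouse neuroblastomas and in normal adrenal gland. They were taken as all mouse genes whose symbol is Col, a number, a and a number, or Lam, a letter a, b or c and a number, and 52 of the 18193 genes measured met this rule (42 collagens and 10 laminins). Where a gene had several probe sets, the one with the highest average signal stood for it. By the class of their protein, 11 are fibrillar collagens, 16 are chains of the basement membrane (6 type IV collagens and 10 laminins) and 25 are other collagens. Col6a6 and Col28a1 belong to these classes and were not analysed here.

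The study compared tumours of mice that carry MYCN, mutated ALK or both as transgenes, all on a C57BL/6 background. Their expression is in neural crest, the embryonic source of sympathetic neurons and adrenal medulla, and tumours were collected once they could be felt. The groups are normal adrenal gland (genotype normal, n = 3 arrays), tumours with mutated ALK, a receptor tyrosine kinase (mutALK, n = 3), tumours with MYCN, a transcription factor (MYCN, n = 4), and tumours with the genotype "MYCN AND mutated ALK", here called double transgenic (n = 3). The promoter, the ALK mutation, sex and age are not given in the sources used here. Whether the arrays come from separate animals is not stated in the labels, and mutALK arrays 2 and 3 share a number in their titles, as do MYCN arrays 2 and 3. The p-values therefore measure the spread between these samples, which may be technical in part. The double transgenic samples were numbered apart from the other 10 in the repository, and a difference in when the arrays were run cannot be told apart from genotype for them.

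Collagens are trimeric proteins. Fibrillar collagens, above all types I, III and V, assemble into the rope-like fibres of connective tissue, and are made mainly by fibroblasts. Basement membranes are thin sheets under epithelia and endothelia and around nerve, muscle and fat cells, built on a network of type IV collagen and a network of laminins, each of which joins an alpha, a beta and a gamma chain. In neuroblastoma, matrix and blood vessels belong to the stroma among the tumour cells.

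Values are RMA expression values on the log2 scale, on which a difference of 1 is 2-fold. Array values are listed in the order of array number, group levels are means ± SD, and differences are given ± SE with a p adjusted by Benjamini-Hochberg over all 18193 genes from one limma fit on the 13 arrays. Where 3 differences from adrenal gland follow one another, they belong to mutALK, MYCN and double transgenic tumours in that order. A gene is called higher or lower at an adjusted p under 0.05. Because probe sets differ in brightness, levels of different genes are not compared. Percentages of all genes called are given beside the first count for each comparison, as the background against which the members' count is read.

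The array medians lay between 5.8 and 5.9. Adrenal cortex markers, mean over 12 genes, read 11.25 to 12.7 in the adrenal arrays and 5.15 to 6.71 in all tumours, and sympathoadrenal markers (13 genes) read 8.13 to 9.9 in adrenal gland and 10.43 to 11.6 in tumours. Liver transcripts (14 genes) were high in 5 arrays, namely double transgenic 1 (11.7), mutALK 1 (10.69), adrenal 2 (10.51), mutALK 3 (9.47) and MYCN 2 (8.32), and read 4.23 to 5.54 in the remaining 8. Fat cell markers (10 genes) read 9.98 to 11.96 in adrenal gland and 5.14 to 8.7 in tumours. Skeletal muscle markers (10 genes) read 8.07 in MYCN 3 and 6.88 in double transgenic 1, against 4.74 to 5.36 elsewhere. The whole gland holds cortex, capsule, vessels and fat, so a difference from it compares tissues of different makeup. In these bulk samples fewer cells of a type and less RNA per cell cannot be told apart.

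Basement membrane chains were lower in every tumour group than in adrenal gland, and none was called higher. Of the 16 chains, the mutALK tumours had 12 called lower, the MYCN tumours 11 and the double transgenic tumours 12, with median differences of -0.86, -0.74 and -1.06, against medians of 0.00, -0.02 and -0.03 over all genes. Over all 52 collagen and laminin genes, 20, 21 and 29 were called lower in these comparisons and 6, 2 and 3 higher. Among all genes 21%, 24.8% and 24.2% were called lower and 21.3%, 25.4% and 24.3% higher. Of the 16 chains 9 were lower in all 3 tumour groups, namely Col4a3, Col4a4, Col4a5, Lama2, Lama3, Lama4, Lama5, Lamb1 and Lamc3. The share of all genes lower in all 3 was not counted, so this number has no background beside it. Without 1 array at a time, 8 to 12, 9 to 12 and 12 to 13 chains were called lower. Without the 5 arrays high in liver transcripts, an alternative under which mutALK is 1 array whose spread is taken from the other groups, 8, 11 and 13 were.

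Among the laminin alpha chains, which carry the main sites for cell surface receptors, the falls were deepest in Lama4, the alpha chain of vessel walls and fat, and Lama2, the alpha chain of muscle and Schwann cell basement membranes. Lama2 read 8.79, 8.4 and 8.63 in adrenal gland, 7.24, 7.08 and 6.73 in mutALK, 5.64, 6.07, 6.09 and 6.43 in MYCN and 6.15, 6.07 and 6.18 in double transgenic tumours. No tumour array reached an adrenal one, and the mutALK arrays lay above all other tumour arrays. Lama2 fell by 1.59 ± 0.19 in mutALK (adjusted p = 5.87e-05), by 2.55 ± 0.18 or 5.87-fold in MYCN (5.86e-07) and by 2.47 ± 0.19 in double transgenic tumours (1.61e-06). MutALK tumours exceeded MYCN tumours by 0.96 ± 0.18 (0.00194), and the double transgenic minus mutALK difference was -0.88 ± 0.19 (0.0136), the latter not called without mutALK 1, mutALK 2 or double transgenic 2 (-0.85 to -0.77, adjusted p 0.0503 to 0.0547).

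Lama4 read 9.52, 9.37 and 9.68 in adrenal gland, 7.73, 8.15 and 7.48 in mutALK, 6.97, 7.72, 7.9 and 8.08 in MYCN and 6.7, 6.11 and 6.45 in double transgenic tumours. The adrenal arrays were the highest, the double transgenic arrays the lowest, and the mutALK and MYCN arrays overlapped between them. Against adrenal gland Lama4 changed by -1.73 ± 0.27 (0.000366), -1.86 ± 0.26 (8.26e-05) and -3.1 ± 0.27 (3.8e-06) across the mutALK, MYCN and double transgenic groups. Lama3, a chain of epithelial laminins, changed by -1.46 ± 0.24, -1.31 ± 0.22 and -1.71 ± 0.24 in the same order. Its other probe set differed by only -0.06 to 0.09 in these comparisons. Lama5, the most widespread alpha chain of adult tissue, changed by -0.84 ± 0.16, -0.61 ± 0.15 and -0.83 ± 0.16. Of its other probe sets 1 was called lower in each comparison and 1 was not called (0.19, 0.1 and 0.01). The mutALK fall of Lama5 was not called without the 5 arrays high in liver transcripts (-0.62, adjusted p 0.0777). Lama1, an alpha chain prominent in the embryo, fell by 1.06 ± 0.3 in mutALK and by 1.29 ± 0.28 in MYCN tumours, and its difference in double transgenic tumours was -0.68 ± 0.3 (0.0781). Without adrenal 1 or adrenal 3 the mutALK difference of Lama1 was -0.92 to -0.82 (adjusted p 0.0516 to 0.054).

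Beta and gamma chains complete the laminin trimer. Lamb1, the common beta chain, read 10.78, 10.33 and 10.79 in adrenal gland, 9.42, 9.99 and 9.83 in mutALK, 9.63, 9.76, 9.6 and 9.92 in MYCN and 8.88, 9.01 and 10.16 in double transgenic tumours. Each tumour array lay below each adrenal array, and double transgenic 3 was the highest of the 10 tumours. Lamb1 changed by -0.89 ± 0.29 (0.0297), -0.91 ± 0.27 (0.0156) and -1.28 ± 0.29 (0.00337). The first was not called without mutALK 1, mutALK 3, adrenal 1 or adrenal 3 (-0.93 to -0.72, adjusted p 0.0558 to 0.106), nor the second without adrenal 1 or adrenal 3 (-0.84 to -0.83, 0.0557 to 0.0561). Of the other Lamb1 probe sets 2 were called lower in each comparison and 1 was not called. The highest differences among them were -0.03, 0.3 and 0.47.

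Lamb2, the beta chain of synapses and kidney filter, was lower in mutALK than in adrenal gland by 1.08 ± 0.28 (0.00854). In MYCN and double transgenic tumours it differed from adrenal gland by -0.23 ± 0.26 (0.51) and -0.45 ± 0.28 (0.214). Lamb2 was also lower in mutALK than in MYCN tumours (-0.84 ± 0.26, 0.0293), a call lost without mutALK 2, mutALK 3 or MYCN 1, 2 or 4 (-0.83 to -0.62, adjusted p 0.0598 to 0.138). Lamc1, the gamma chain of most laminins, fell by 0.84 ± 0.21 (0.00641) in double transgenic and by 0.61 ± 0.21 (0.037) in mutALK tumours, and differed by -0.46 ± 0.2 (0.0778) in MYCN tumours. The double transgenic call was lost without adrenal 2 and double transgenic 1 together and without the 5 arrays high in liver transcripts (-0.71 in both, adjusted p 0.0577 to 0.117), and the mutALK call without any 1 mutALK array, adrenal 1 or adrenal 2 (-0.64 to -0.55, adjusted p 0.063 to 0.109). Lamc3, a gamma chain found in nerve and retina, changed by -0.56 ± 0.13, -0.51 ± 0.12 and -0.53 ± 0.13 across the mutALK, MYCN and double transgenic groups (0.00337, 0.00324 and 0.00391). Lamb3, the beta chain of the epithelial laminin of skin, was called in no comparison and ranged from 4.49 to 5.39 over the 13 arrays.

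**Figure D1:**
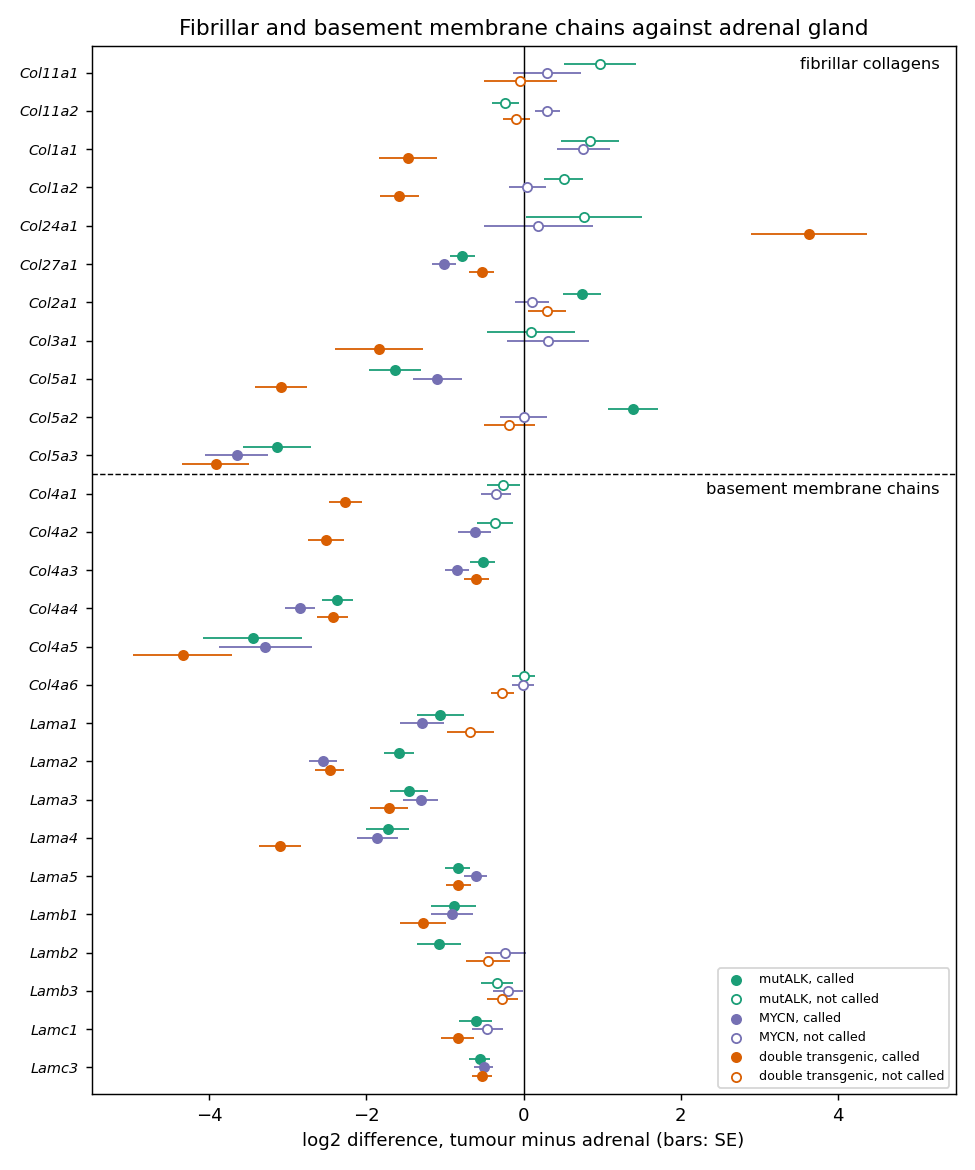
Differences from adrenal gland (x axis, log2, bars are SE) of the 11 fibrillar collagens and 16 basement membrane chains (y axis) in the 3 tumour groups, with filled points for genes called in the limma fit and open points for the rest. Called basement membrane points all lie left of 0, while fibrillar points lie on both sides, and for Col1a1, Col1a2, Col3a1, Col4a1 and Col4a2 the double transgenic points are called lower and lie left of both other tumour points.

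Type IV collagen is built from 3 kinds of trimer, and the genes of its chains lie head to head in pairs on the chromosomes: Col4a1 with Col4a2, Col4a3 with Col4a4, and Col4a5 with Col4a6. The pairs behaved differently from one another. Col4a1 and Col4a2, the chains of nearly all basement membranes, were lowest in double transgenic tumours. Col4a3, Col4a4 and Col4a5, chains of specialised membranes such as that of the kidney filter, were lower in all 3 tumour groups. Col4a6, the partner of Col4a5, was called in no comparison and ranged from 4.21 to 4.96.

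Col4a5 read 8.3, 8.11 and 8.73 in adrenal gland, 4.84, 4.04 and 5.9 in mutALK, 4.32, 4.98, 4.99 and 6.07 in MYCN and 5.49, 3.3 and 3.33 in double transgenic tumours. The tumour groups overlapped one another and none reached the adrenal values. The differences were -3.45 ± 0.63 (0.001), -3.29 ± 0.59 (0.000598) and -4.34 ± 0.63 (0.000142), in MYCN tumours a 9.78-fold fall. Col4a4 read 6.84, 6.55 and 6.9 in adrenal gland, 4.62, 3.92 and 4.63 in mutALK, 3.84, 4.1, 3.72 and 4.01 in MYCN and 4.4, 4.06 and 4.54 in double transgenic tumours. Its highest tumour value lay nearly 2 log2 units under its lowest adrenal value. Col4a4 changed by -2.37 ± 0.2 (5.8e-06), -2.85 ± 0.19 (4.08e-07) and -2.43 ± 0.2 (2.61e-06). Col4a3 changed by -0.52 ± 0.16 (0.0238), -0.85 ± 0.15 (0.000575) and -0.6 ± 0.16 (0.00939). The first of these was not called without mutALK 1, mutALK 3, adrenal 1 or adrenal 3 (-0.5 to -0.43, adjusted p 0.0637 to 0.0856).

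Col4a1 and Col4a2 are shown with the sequence around their start sites, because the genes share that region and moved together. The windows run from 250 bases before to 50 bases after the start of each gene in RefSeq's annotation of the mouse assembly GRCm38.p6, at chr8:11312777-11313076 on the minus strand for Col4a1 and chr8:11312555-11312854 on the plus strand for Col4a2, each written 5′ to 3′. Capitals mark the 78 bases that both windows hold, read from opposite strands.
Col4a1: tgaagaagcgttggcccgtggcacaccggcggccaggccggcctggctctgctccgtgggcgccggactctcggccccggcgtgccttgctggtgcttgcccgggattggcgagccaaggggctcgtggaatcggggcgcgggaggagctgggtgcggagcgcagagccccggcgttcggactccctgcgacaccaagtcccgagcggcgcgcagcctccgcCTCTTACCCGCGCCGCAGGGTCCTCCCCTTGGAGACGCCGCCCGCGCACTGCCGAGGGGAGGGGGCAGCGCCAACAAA
Col4a2: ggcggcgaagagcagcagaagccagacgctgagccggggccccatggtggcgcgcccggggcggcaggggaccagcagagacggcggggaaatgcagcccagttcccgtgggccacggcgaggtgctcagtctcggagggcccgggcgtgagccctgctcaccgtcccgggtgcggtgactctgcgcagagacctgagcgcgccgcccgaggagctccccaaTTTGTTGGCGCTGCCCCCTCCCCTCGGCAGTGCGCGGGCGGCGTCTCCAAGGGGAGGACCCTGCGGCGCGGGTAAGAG
The GC box letters GGGCGG and the CCAAT box letters CCAAT each occurred in both windows, on either strand. Of the 52 genes 38 had such a window, 42 windows in all. GGGCGG was found in 25 of these 42 (59.5%) and in 35.7% of all 32851 windows of this length, CCAAT in 14 (33.3%) and 37.4%. The windows of Col4a5 and Col4a6 lie 842 bases apart.

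Col4a1 read 11.51, 11.43 and 11.53 in adrenal gland, 10.92, 11.47 and 11.31 in mutALK, 10.77, 11.19, 11.19 and 11.42 in MYCN and 9.53, 8.83 and 9.3 in double transgenic tumours. Its partner Col4a2 read 10.57, 10.42 and 10.67, then 9.78, 10.5 and 10.29, then 9.53, 9.91, 9.99 and 10.28, then 8.37, 7.76 and 7.95 in the same groups. For both genes the 3 double transgenic arrays lay more than 1 log2 unit under the lowest of the other 10 arrays. Col4a1 was lower in double transgenic tumours by 2.27 ± 0.21 than in adrenal gland (4.78e-06), by 1.92 ± 0.19 than in MYCN (0.00044) and by 2.01 ± 0.21 than in mutALK (0.000566), or 3.79-fold and 4.04-fold for the tumours. Col4a2 differed by -2.52 ± 0.23 (4.46e-06), -1.9 ± 0.21 (0.000787) and -2.16 ± 0.23 (0.000642) in the same order. These 6 calls held under every alternative run. In single-driver tumours Col4a1 differed from adrenal gland by -0.26 ± 0.21 (0.368) in mutALK and -0.35 ± 0.19 (0.166) in MYCN. Col4a2 fell by 0.62 ± 0.21 in MYCN tumours (0.0293), a call lost without MYCN 1, MYCN 2, adrenal 1 or adrenal 3 (-0.62 to -0.49, adjusted p 0.0568 to 0.0905), and differed by -0.36 ± 0.23 in mutALK (0.241).

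Fibrillar collagens were called in both directions. Against adrenal gland, 2 of 11 were called higher and 3 lower in mutALK tumours, none higher and 3 lower in MYCN tumours, and 1 higher and 6 lower in double transgenic tumours. Read against the shares of all genes given above, the mutALK counts and the MYCN count of lower genes are near the background. The median differences were 0.51, 0.11 and -0.53. Without adrenal 2, 5 fibrillar collagens were called higher in mutALK tumours, and without 1 array at a time 4 to 7 were called lower in double transgenic tumours. Counting basement membrane chains beside them, the share called lower in mutALK tumours was 3 of 11 against 12 of 16, and no test was made of the difference between the classes.

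Type V collagen sits inside type I fibrils and sets their width. Col5a3, its least widespread chain, read 10.99, 9.73 and 11.66 in adrenal gland, 7.96, 7.73 and 7.28 in mutALK, 6.64, 6.88, 7.6 and 7.43 in MYCN and 6.53, 6.86 and 7.23 in double transgenic tumours. Every tumour array lay under every adrenal array, and the tumour groups overlapped. Col5a3 differed by -3.14 ± 0.43 (0.000136), -3.65 ± 0.4 (1.42e-05) and -3.92 ± 0.43 (1.75e-05), while its other, dimmer probe set differed by 0.00 to 0.13. Col5a1, the chain present in nearly every type V trimer, read 9.32, 8.7 and 9.52 in adrenal gland, 7.24, 7.59 and 7.8 in mutALK, 7.71, 8.25, 7.83 and 8.51 in MYCN and 6.79, 5.96 and 5.53 in double transgenic tumours. The 3 ranges of adrenal, single-driver and double transgenic arrays were separate. Against adrenal gland Col5a1 changed by -1.64 ± 0.33 (0.00185), -1.1 ± 0.31 (0.0103) and -3.09 ± 0.33 (1.48e-05). Both of its other probe sets were called lower as well in each.

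Col27a1, a fibrillar collagen of cartilage and growing tissue, changed by -0.78 ± 0.16 (0.00216), -1.01 ± 0.15 (0.000145) and -0.53 ± 0.16 (0.0169) against adrenal gland. The last call was lost without adrenal 2 or double transgenic 1 (-0.43 to -0.35, adjusted p 0.0545 to 0.0703). Col2a1, the main cartilage collagen, was higher in mutALK tumours by 0.74 ± 0.24 (0.025), and not called without mutALK 1, mutALK 2, adrenal 1 or adrenal 3 (0.46 to 0.75, 0.0544 to 0.0922). Of the type XI chains, which seed cartilage fibrils, Col11a1 was called in no comparison and ranged from 4.16 to 6.15. Col11a2 was lower in mutALK than in MYCN tumours (-0.53 ± 0.16, 0.0275), a call lost without mutALK 2 or 3 or MYCN 2, 3 or 4 (-0.54 to -0.46, 0.0532 to 0.0972).

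In double transgenic tumours some chains of fibres and some of basement membranes were low. In all, 10 of 52 genes were called lower in it than in MYCN and than in mutALK tumours: the fibrillar Col1a1, Col1a2, Col3a1 and Col5a1, the basement membrane chains Col4a1, Col4a2 and Lama4, and Col6a1, Col6a2 and Col15a1. All 10 were also called lower than in adrenal gland. How many of all genes were called lower than in both single drivers was not counted. Against each single driver, 11 of 52 were lower and 2 higher than in MYCN tumours (6.66% and 6.16% of all genes), and 16 lower and 2 higher than in mutALK tumours (6.04% and 8.39%). For 10 of 52 genes the 3 double transgenic arrays lay under all 10 other arrays, against 2.58% of all genes. These are the same genes except that Col8a2 takes the place of Col3a1. The 10 became 5 with arrays that share a title number averaged, 7 with that number as a random block and 5 with the compared groups alone, since Col3a1, Col5a1, Col6a1, Col6a2 and Col15a1 each lost a call in at least 1 of these. Without 1 array at a time 5 to 10 genes were called lower than in both, 5 of them without mutALK 2 or without double transgenic 2, and 8 were without the 5 arrays high in liver transcripts. The 11 lower than in MYCN became 6 without double transgenic 2 and 7 without MYCN 4, and the 16 lower than in mutALK became 8 without mutALK 2 and 9 without double transgenic 2.

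Type I collagen, the main protein of connective tissue fibres, is a trimer of the products of Col1a1 and Col1a2. Col1a1 read 8.49, 9.29 and 7.73 in adrenal gland, 9.0, 9.1 and 9.94 in mutALK, 9.2, 9.36, 9.09 and 9.38 in MYCN and 7.51, 6.95 and 6.63 in double transgenic tumours. Adrenal 3 came within 0.3 log2 units of the highest double transgenic array, and no other array did. Col1a1 was lower in double transgenic tumours by 1.47 ± 0.37 than in adrenal gland (0.00565), by 2.23 ± 0.34 or 4.68-fold than in MYCN (0.00272) and by 2.32 ± 0.37 or 4.99-fold than in mutALK (0.00379). Single-driver tumours differed from adrenal gland by 0.85 ± 0.37 in mutALK (0.0874) and 0.76 ± 0.34 in MYCN (0.0907).

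Col1a2 read 11.55, 11.89 and 11.06 in adrenal gland, 12.03, 11.95 and 12.06 in mutALK, 11.59, 11.52, 11.32 and 11.77 in MYCN and 10.48, 9.64 and 9.62 in double transgenic tumours. Here too the double transgenic arrays were the lowest 3 of 13, and the mutALK arrays the highest 3. Col1a2 differed in double transgenic tumours by -1.58 ± 0.25 (0.000234), -1.63 ± 0.23 (0.00183) and -2.1 ± 0.25 (0.00113) against adrenal gland, MYCN and mutALK. The calls of Col1a1 and Col1a2 held under every alternative fit of these values. The other probe set of Col1a1 gave -1.7, -2.0 and -2.2. Of the other 2 probe sets of Col1a2, one gave -2.1 and -2.29 against MYCN and mutALK tumours and was called, and the other gave -0.18 and -0.25 and was not. The window around the start of Col1a2, at chr6:4505368-4505667 on the plus strand of GRCm38.p6 in RefSeq, is shown because the gene is one of the fibrillar collagens that carry this difference. Capitals mark the CCAAT letters, and ATTGG, which is CCAAT on the other strand.
Col1a2: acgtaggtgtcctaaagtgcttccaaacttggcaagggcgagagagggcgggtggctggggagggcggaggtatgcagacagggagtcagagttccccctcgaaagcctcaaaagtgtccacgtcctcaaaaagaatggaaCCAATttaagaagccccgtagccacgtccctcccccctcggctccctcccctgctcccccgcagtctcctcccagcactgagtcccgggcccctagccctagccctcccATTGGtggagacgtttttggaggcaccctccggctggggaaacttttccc
The E-box letters CACGTG, to which MYC proteins can bind, were in 0 of the 42 windows of collagen and laminin genes and in 7.15% of all windows, and TATAAA in 5 (11.9%) and 13.6%. These counts describe the letters in 300 bases and say nothing about binding.

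Type III collagen, which mixes with type I in vessel walls and soft tissue, is made from Col3a1. It read 12.06, 12.19 and 10.56 in adrenal gland, 12.16, 10.99 and 11.95 in mutALK, 11.99, 11.68, 11.9 and 12.09 in MYCN and 10.95, 9.68 and 8.66 in double transgenic tumours. Double transgenic 1 was above adrenal 3, so those groups overlapped. The mutALK and MYCN arrays overlapped too, and all lay above the highest double transgenic array. Col3a1 differed in double transgenic tumours by -1.84 ± 0.56 (0.0165), -2.15 ± 0.52 (0.0211) and -1.94 ± 0.56 (0.0404) against adrenal gland, MYCN and mutALK. The call against mutALK was lost in 10 of the 13 fits without 1 array (all but those without adrenal 2, adrenal 3 or double transgenic 1), with differences of -2.29 to -1.39 and adjusted p of 0.0506 to 0.124. That against MYCN was lost without MYCN 4, double transgenic 2 or double transgenic 3 (-2.11 to -1.6, 0.0529 to 0.0886), and that against adrenal gland without adrenal 1, adrenal 2 or double transgenic 3 (-1.61 to -1.29, 0.06 to 0.0695).

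Col5a1, with the array values given above, was lower in double transgenic than in MYCN tumours by 1.98 ± 0.31 (0.00283) and than in mutALK tumours by 1.45 ± 0.33 (0.0163). The second call was lost without mutALK 2 or double transgenic 2 (-1.43 to -1.38, adjusted p 0.056 to 0.0647). Lama4 was lower by 1.25 ± 0.26 than in MYCN (0.0103) and by 1.37 ± 0.27 than in mutALK tumours (0.00953), and these calls held under every alternative fit of these values. Its other probe set differed by -0.44 and -0.47 and was not called.

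Type VI collagen forms beaded filaments around cells, from the chains of Col6a1 and Col6a2 joined most often by that of Col6a3. Col6a1 read 11.23, 10.24 and 11.55 in adrenal gland, 7.89, 8.5 and 8.67 in mutALK, 8.11, 8.02, 8.36 and 8.57 in MYCN and 7.67, 6.44 and 6.31 in double transgenic tumours. Adrenal arrays were far above all tumours, and double transgenic 1 was only a little under mutALK 1. Against adrenal gland it changed by -2.65 ± 0.4 (0.000259), -2.74 ± 0.37 (7.29e-05) and -4.2 ± 0.4 or 18.4-fold (6.23e-06). Between tumours it was lower in double transgenic by 1.46 ± 0.37 than in MYCN (0.0256) and by 1.55 ± 0.4 than in mutALK (0.0264). The first was lost without MYCN 2, 3 or 4 or double transgenic 2 or 3 (-1.54 to -1.21, 0.0515 to 0.113), the second without mutALK 2 or 3 or double transgenic 2 or 3 (-1.48 to -1.3, 0.0644 to 0.104).

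Col6a2 read 9.88, 10.32 and 8.96 in adrenal gland, 8.58, 9.09 and 9.2 in mutALK, 8.8, 8.92, 9.24 and 9.55 in MYCN and 8.28, 6.84 and 6.99 in double transgenic tumours. Unlike Col6a1, it overlapped between adrenal gland and the single-driver tumours. In double transgenic tumours it was lower than in adrenal gland (-2.35 ± 0.41, 0.000547), MYCN (-1.76 ± 0.39, 0.0136) and mutALK tumours (-1.59 ± 0.41, 0.0275). The last 2 calls were lost without double transgenic 2 or 3, and the last also without mutALK 2 or 3 (-1.57 to -1.49 and -1.52 to -1.32, adjusted p 0.0613 to 0.0638 and 0.0634 to 0.111). Col6a3 was lower in double transgenic tumours than in adrenal gland by 0.76 ± 0.27 (0.0358). This was not called without adrenal 1, adrenal 2 or double transgenic 2 or 3 (-0.76 to -0.6, 0.0678 to 0.129). Col6a5, an alternative to the Col6a3 chain, was near the low end of the scale throughout and changed by -0.51 ± 0.18, -0.54 ± 0.17 and -0.68 ± 0.18 across the mutALK, MYCN and double transgenic groups. Without adrenal 2 its mutALK and MYCN calls were lost (to -0.28 and -0.31, adjusted p 0.1 and 0.0524), the former also without any 1 mutALK array or MYCN 3.

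Col15a1 and Col18a1 encode the multiplexins, collagens with heparan or chondroitin sulfate chains at basement membranes, whose ends are released as restin and endostatin. Col15a1 read 7.61, 7.8 and 7.32 in adrenal gland, 7.35, 7.59 and 7.32 in mutALK, 7.32, 7.36, 7.26 and 7.45 in MYCN and 6.4, 6.24 and 7.09 in double transgenic tumours. Double transgenic 3 was close to MYCN 3 and the other 2 stood apart. In them Col15a1 differed by -1.0 ± 0.2 (0.0013), -0.77 ± 0.19 (0.0203) and -0.85 ± 0.2 (0.0185) from adrenal gland, MYCN and mutALK. The calls between tumours were lost without double transgenic 1 or 2, that against MYCN also without MYCN 2 or 4 (-0.77 to -0.61, 0.0542 to 0.0836) and that against mutALK also without mutALK 2 (-0.76 to -0.68, 0.059 to 0.0767). Col18a1 was lower in double transgenic tumours than in adrenal gland by 0.75 ± 0.27 (0.0382), a call lost without any 1 adrenal array, MYCN 3 or double transgenic 2 or 3 (-0.79 to -0.46, 0.0507 to 0.162).

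**Figure D2:**
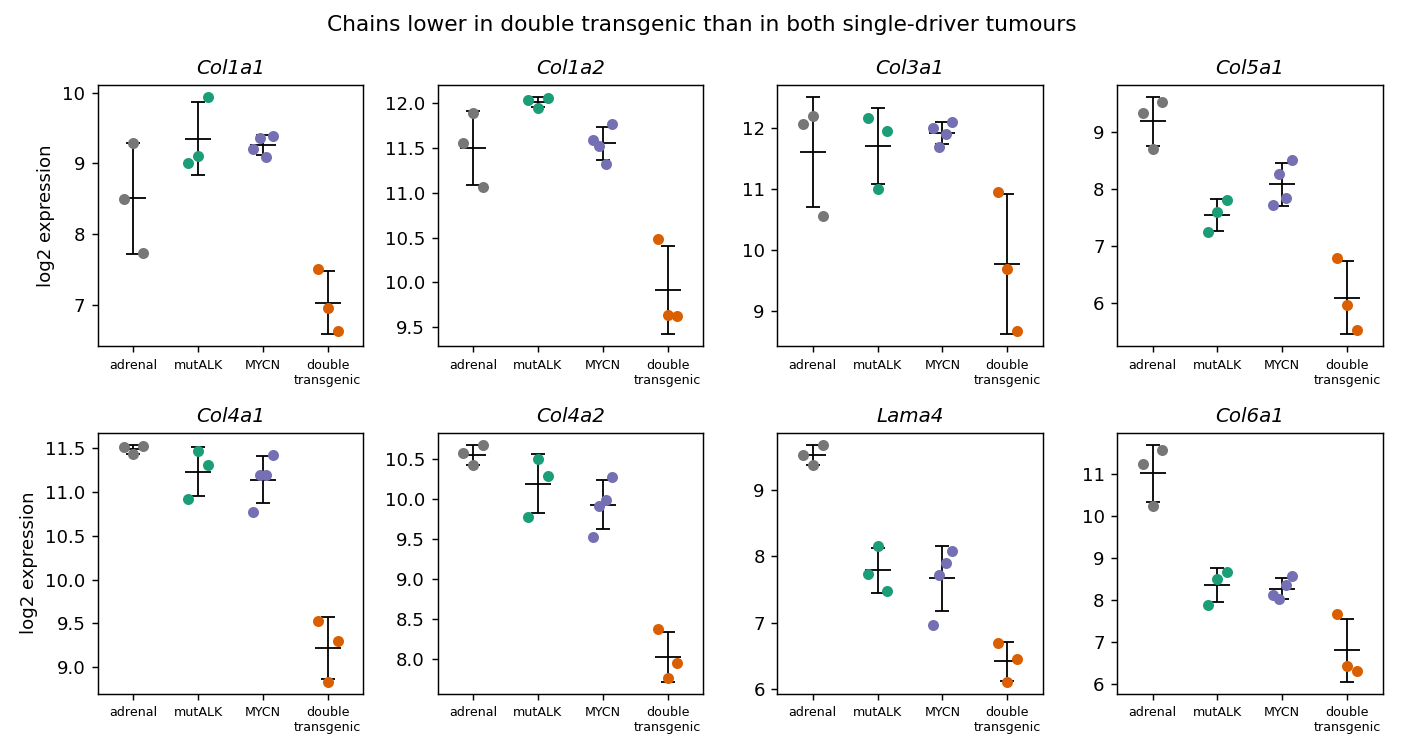
Log2 expression (y axis) of 8 of the 10 genes called lower in double transgenic than in both single-driver tumours, by group (x axis), with 1 point per array and the group mean ± SD as lines. Double transgenic arrays are the lowest in each panel except Col3a1, where double transgenic 1 (10.95) lies above adrenal 3 (10.56).

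Markers of the cells that make these chains were also low in the double transgenic arrays. Fibroblast markers (mean over 15 genes) read 7.77 to 8.7 in adrenal gland, 6.63 to 7.51 in mutALK, 6.08 to 6.97 in MYCN and 5.4 to 6.08 in double transgenic tumours. Endothelial markers (15 genes) read 8.8 to 9.08, 6.9 to 7.57, 6.56 to 7.73 and 5.7 to 6.3, and pericyte and smooth muscle markers (12 genes) 8.41 to 9.25, 7.21 to 8.53, 7.93 to 8.48 and 6.11 to 6.77. Against MYCN tumours 10 of 15 endothelial, 8 of 12 pericyte and smooth muscle and 4 of 15 fibroblast markers were called lower and none higher. Against mutALK tumours the counts were 10, 7 and 5, again with none higher. Pecam1 and Cdh5, adhesion proteins of endothelium, were lower than in MYCN tumours, with differences of -2.27 ± 0.32 (0.00175) and -2.21 ± 0.42 (0.00703). Pdgfrb, the receptor that marks pericytes and fibroblasts and stands on both lists, was lower by 2.2 ± 0.31 (0.00176). Macrophage markers (14 genes) read 7.27 to 8.1 in double transgenic, 7.73 to 8.63 in MYCN and 8.44 to 9.32 in mutALK tumours. The part of these cell types in the collagen and laminin values was not tested. None of these marker lists holds a collagen or laminin gene.

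**Figure D3:**
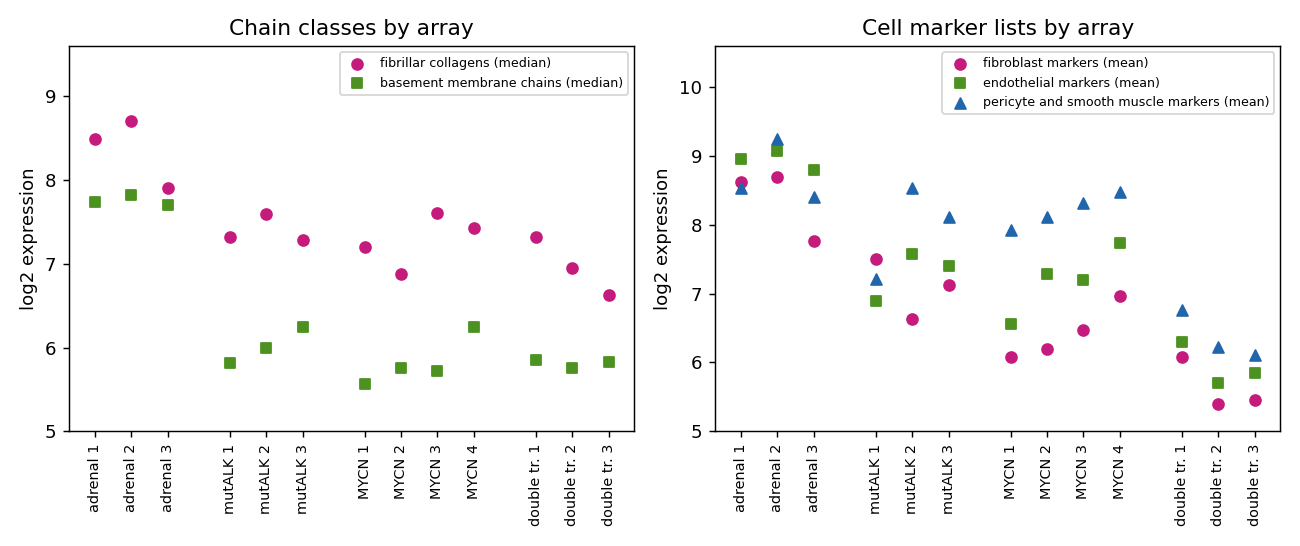
Log2 expression (y axes) in each of the 13 arrays (x axes), on the left the median of the 11 fibrillar collagens and of the 16 basement membrane chains, on the right the mean of the fibroblast, endothelial and pericyte and smooth muscle marker lists. Basement membrane medians separate adrenal gland (7.7 to 7.82) from all tumours (5.57 to 6.25) and marker means are lowest in the double transgenic arrays for each list, except that double transgenic 1 ties with MYCN 1 (6.08) in the fibroblast list, while the gap between the classes on the left depends on probe brightness and carries no meaning by itself.

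Summarised as 1 median per array, both classes were lower in tumours than in adrenal gland, although the median of the fibrillar genes' differences was above 0 in mutALK and MYCN tumours. The basement membrane median was 7.75 ± 0.06 in adrenal gland (n = 3), 6.02 ± 0.22 in mutALK (n = 3), 5.82 ± 0.29 in MYCN (n = 4) and 5.81 ± 0.05 in double transgenic tumours (n = 3). The fibrillar median was 8.36 ± 0.41, 7.4 ± 0.17, 7.28 ± 0.31 and 6.97 ± 0.34. Such a median can fall on different genes in different arrays. The fibrillar fall in single-driver tumours was not seen in the mean of a chosen set of chains. The mean of Col1a1, Col1a2, Col3a1, Col5a1 and Col5a2, here called abundant chains, was 9.94 ± 0.49 in adrenal gland and 10.18 ± 0.19 in mutALK tumours. It was 9.94 ± 0.18 in MYCN and 8.31 ± 0.59 in double transgenic tumours. This set leaves out Col5a3, which differed by -3.14, -3.65 and -3.92 from adrenal gland. The average signal of Col5a3 ranked above that of Col5a1 (percentiles 62.2 and 58.3 of gene means), so the result holds for the chosen set only. Fibrillar minus basement membrane median was 0.61 ± 0.36 for adrenal gland, 1.38 ± 0.3 for mutALK, 1.46 ± 0.37 for MYCN and 1.16 ± 0.34 for double transgenic tumours. All mutALK and MYCN arrays (1.03 to 1.89) lay above all adrenal arrays (0.2 to 0.89), and the double transgenic arrays (0.8 to 1.47) overlapped both. Between tumours, the median difference of double transgenic from mutALK tumours was -1.01 for fibrillar collagens and -0.24 for basement membrane chains, with 5 of 11 and 4 of 16 called lower. From MYCN tumours it was -0.34 and -0.24, with 4 of 11 and 3 of 16 called lower. Without mutALK 2 or without double transgenic 2 the fibrillar count against mutALK was 3. No test over the lists was made.

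In mutALK against MYCN tumours 8 of 52 genes were called higher and 2 lower. Among all genes 13.6% and 17.2% were, so the number higher is near the background. Of the 8, 6 genes, Col5a2, Lama2, Col6a4, Col12a1, Col20a1 and Col8a1, were also higher in mutALK than in double transgenic tumours. The share of all genes that met both criteria was not counted. Without 1 array at a time 3 to 7 genes met both criteria, the fewest without mutALK 2. Without the 5 arrays high in liver transcripts 3 did. Some markers of other cell types were also higher in mutALK than in MYCN tumours. Schwann cell markers (mean over 12 genes) read 6.81 to 7.94 in mutALK, 5.98 to 6.31 in MYCN, 6.78 to 7.03 in double transgenic tumours and 6.66 to 8.81 in adrenal gland. In mutALK against MYCN tumours 5 of 12 Schwann cell, 5 of 15 fibroblast and 4 of 14 macrophage markers were called higher, and 1, 1 and none lower. In double transgenic against mutALK tumours 2, 5 and 5 of these markers were called lower, and 1, none and none higher. Their part in the collagen and laminin values was not tested.

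Col8a1, a short-chain collagen of vessel walls and of the membrane behind the cornea, read 6.3, 7.33 and 6.1 in adrenal gland, 9.94, 10.59 and 9.62 in mutALK, 7.54, 8.39, 8.47 and 8.42 in MYCN and 8.18, 8.27 and 8.63 in double transgenic tumours. Adrenal arrays were lowest, mutALK arrays highest, and the MYCN and double transgenic arrays overlapped. Against adrenal gland it rose by 3.47 ± 0.36 or 11.1-fold (1.92e-05), 1.63 ± 0.33 (0.00148) and 1.78 ± 0.36 (0.00139) across the mutALK, MYCN and double transgenic groups. In mutALK it exceeded MYCN tumours by 1.84 ± 0.33 (0.00162), and double transgenic tumours were lower than mutALK by 1.69 ± 0.36 (0.0119), a call lost without mutALK 2 (-1.42, adjusted p 0.051). Against adrenal gland, both other probe sets of Col8a1 were called higher in mutALK tumours (1.15 to 2.47). Only 1 of them was called in MYCN (0.39 to 0.72) and none in double transgenic tumours (0.31 to 0.46). The partner chain Col8a2 moved the other way, with differences of -1.57 ± 0.3 (0.00141), -1.79 ± 0.28 (0.000238) and -2.0 ± 0.3 (0.000189). The tumour values of Col8a2 ran from 3.14 to 3.72, below the 10th percentile of gene means (3.8), so its falls may be lower bounds.

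Col5a2, the chain that joins Col5a1 in the common type V trimer, read 9.18, 9.5 and 8.07 in adrenal gland, 10.35, 10.38 and 10.19 in mutALK, 8.71, 8.73, 8.92 and 9.31 in MYCN and 9.08, 8.39 and 8.73 in double transgenic tumours. The mutALK arrays stood above the other 10, which overlapped. It was higher in mutALK by 1.39 ± 0.32 than in adrenal gland (0.00416) and by 1.38 ± 0.3 or 2.61-fold than in MYCN (0.00434). The double transgenic tumours stood under the mutALK tumours, at -1.57 ± 0.32 (0.01). Without the 5 arrays high in liver transcripts neither difference between tumours was called (1.4 and -1.82, adjusted p 0.0597 and 0.0546). The other probe set of Col5a2 was called higher in mutALK tumours than in adrenal gland (1.34). Its differences between tumours were not called, at 0.72 for mutALK minus MYCN and -0.59 for double transgenic minus mutALK. Col5a1 was not higher in mutALK than in MYCN tumours (-0.53 ± 0.31, 0.236), so the brightest probe sets of the partner chains did not move together there.

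Col12a1, a fibril-associated collagen that bridges fibrils in tendon and dense tissue, read 7.25, 7.14 and 6.69 in adrenal gland, 7.69, 8.7 and 7.86 in mutALK, 5.65, 5.63, 6.4 and 6.33 in MYCN and 6.74, 6.28 and 6.79 in double transgenic tumours. The mutALK arrays lay above and the MYCN arrays below every adrenal array. It rose by 1.06 ± 0.3 in mutALK (0.0139) and fell by 1.03 ± 0.28 in MYCN tumours (0.00932) against adrenal gland, and the difference between the 2 tumour groups was 2.08 ± 0.28 or 4.23-fold (0.000275). The rise was not called without mutALK 2 or adrenal 3 (0.75 to 0.89, adjusted p 0.0568 to 0.0571), and the 3 other probe sets of the gene showed neither change against adrenal gland (-0.14 to 0.4 in mutALK, -0.06 to 0.07 in MYCN). Nor was mutALK minus MYCN called in any of these 3 (-0.09 to 0.33). Double transgenic tumours were lower than mutALK by 1.48 ± 0.3 (0.01).

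Col6a4, a further type VI chain, read 7.92, 6.98 and 5.97 in the mutALK arrays and 4.63 to 5.31 in all others. The mutALK values did not overlap the rest but spread over nearly 2 log2 units. It was higher in mutALK by 1.74 ± 0.36 than in adrenal gland (0.00235) and by 1.76 ± 0.34 than in MYCN tumours (0.00235), and its other probe set differed by 0.01 in both. Double transgenic tumours were lower than mutALK by 1.98 ± 0.36 (0.0066). Col20a1, a fibril-associated collagen, exceeded its MYCN level in mutALK tumours by 1.21 ± 0.29 (0.00792), with 7.78 in mutALK 1 against 6.58 and 6.27 in mutALK 2 and 3. Its difference between double transgenic and mutALK tumours (-1.06 ± 0.31, 0.043) was lost in 11 of the 13 fits without 1 array, all but those without mutALK 3 or adrenal 2 (-1.21 to -0.61, adjusted p 0.0528 to 0.148). Col16a1, also fibril-associated, fell by 0.82 ± 0.21 in MYCN tumours against adrenal gland (0.00657) and exceeded its MYCN level in mutALK tumours by 0.91 ± 0.21 (0.00687). Col7a1, which anchors epithelial basement membranes to the tissue beneath, exceeded its MYCN level in mutALK tumours by 0.41 ± 0.13 (0.0316), a call lost without mutALK 2 or 3 or MYCN 1, 3 or 4 (0.3 to 0.44, 0.0547 to 0.147).

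Col9a1 and Col24a1 were the genes highest in double transgenic tumours, and for both the 3 double transgenic arrays lay above all 10 others. These 2 of 52 genes (3.85%) are near the share of all genes for which this held (2.32%). Col9a1, a fibril-associated collagen of cartilage, read 3.43, 3.71 and 4.03 in adrenal gland, 7.21, 5.84 and 7.48 in mutALK, 5.98, 5.75, 5.2 and 5.93 in MYCN and 10.36, 9.12 and 9.05 in double transgenic tumours. All tumour arrays were above all adrenal arrays. Col9a1 was higher by 3.12 ± 0.44 in mutALK (0.000167), 1.99 ± 0.41 in MYCN (0.00157) and 5.78 ± 0.44 or 55.1-fold in double transgenic tumours (1.46e-06). It exceeded MYCN tumours by 3.79 ± 0.41 (0.00067) and mutALK tumours by 2.67 ± 0.44 (0.00436) in double transgenic tumours, and these 5 calls held under every alternative fit of these values. The other, dimmer probe set of Col9a1 gave 0.46 and 0.26 in mutALK and MYCN tumours against adrenal gland, not called, and in double transgenic tumours 1.21 against adrenal gland, 0.95 against MYCN and 0.75 against mutALK, all called. Adrenal values of Col9a1 lay near the 10th percentile of gene means (3.8), so its differences from adrenal gland may be lower bounds. Its partner chains Col9a2 (4.5 to 5.12 over all arrays) and Col9a3 (5.86 to 7.23) were called in no comparison, while another probe set of Col9a3 was called higher than in adrenal gland in MYCN (0.96) and double transgenic tumours (1.17).

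Col24a1, a fibrillar collagen of bone and of the embryo, read 3.33, 3.41 and 3.05 in adrenal gland, 3.98, 3.84 and 4.28 in mutALK, 4.18, 3.13, 3.19 and 3.32 in MYCN and 7.72, 8.38 and 4.57 in double transgenic tumours. Double transgenic 3 was within 0.3 log2 units of mutALK 3, and the other 2 were far above. It was higher in double transgenic tumours by 3.63 ± 0.74 than in adrenal gland (0.00156), by 3.44 ± 0.69 than in MYCN (0.00943) and by 2.86 ± 0.74 than in mutALK (0.0272). All adrenal and 3 of 4 MYCN values lay under the 10th percentile of gene means (3.8), so the first 2 differences may be lower bounds. The last call was lost without mutALK 1, mutALK 2, double transgenic 1 or double transgenic 2 (2.11 to 2.83, adjusted p 0.0715 to 0.104). Without the 5 arrays high in liver transcripts the difference from MYCN was 2.91 and not called (0.111). The window around the start of Col24a1, at chr3:145292222-145292521 on the plus strand of GRCm38.p6 in RefSeq, is given for the gene that moved against the other fibrillar collagens. Capitals mark TGACGTCA, the letters of the cAMP response element, a motif chosen after this sequence was seen.
Col24a1: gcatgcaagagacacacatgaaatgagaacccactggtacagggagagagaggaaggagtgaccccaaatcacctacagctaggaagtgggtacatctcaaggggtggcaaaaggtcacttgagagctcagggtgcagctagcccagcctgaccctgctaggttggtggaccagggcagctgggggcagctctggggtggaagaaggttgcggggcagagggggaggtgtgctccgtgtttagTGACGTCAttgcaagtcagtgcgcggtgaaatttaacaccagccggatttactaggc
TGACGTCA was in 1 of the 42 windows (2.38%) and in 1.79% of all windows, on either strand.

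**Figure D4:**
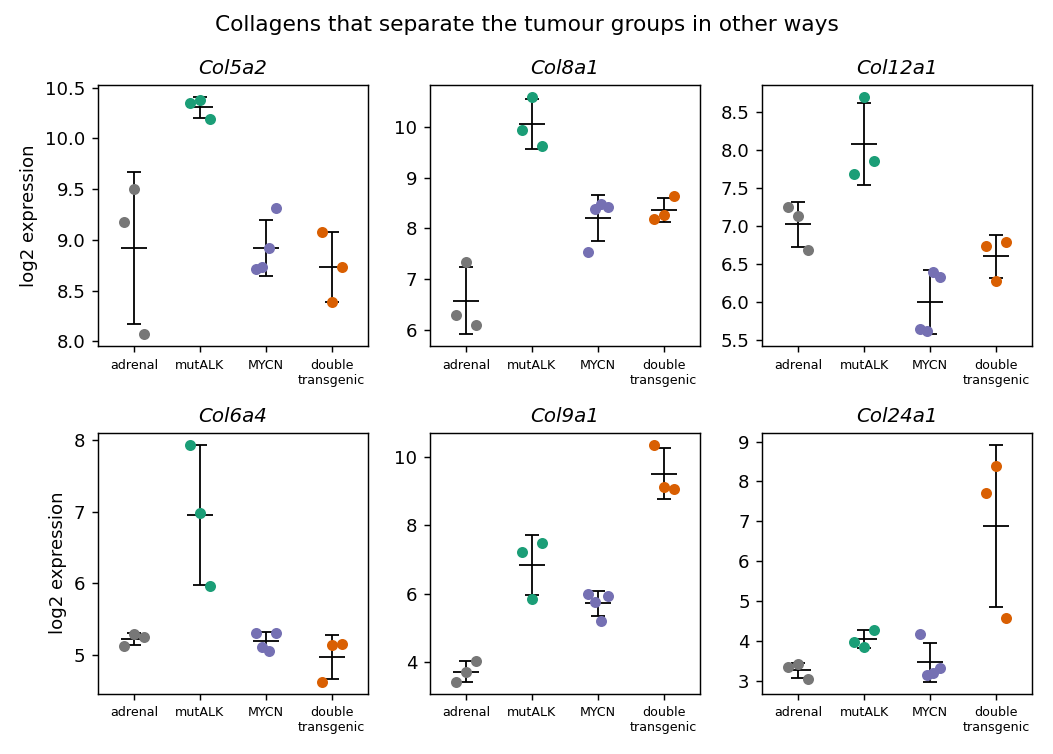
Log2 expression (y axis) of 6 collagens by group (x axis), with 1 point per array and the group mean ± SD as lines. Col5a2, Col8a1, Col12a1 and Col6a4 are highest in mutALK arrays, and Col9a1 and Col24a1 in double transgenic arrays, with double transgenic 3 (4.57) close to the other groups for Col24a1.

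The 25 other collagens, types VI, VIII and the multiplexins included, were called lower in 5, 7 and 11 cases and higher in 4, 2 and 2 across the mutALK, MYCN and double transgenic groups against adrenal gland, the first count being 3 without mutALK 2 or without mutALK 3. Among all genes 21%, 24.8% and 24.2% were called lower and 21.3%, 25.4% and 24.3% higher. Against these shares, the mutALK counts and the MYCN count of lower genes are near the background. Those not yet described differed mainly from adrenal gland. Col13a1, a transmembrane collagen of neuromuscular and other cell contacts, read 6.92, 5.81 and 7.0 in adrenal gland, 4.42, 4.62 and 4.73 in mutALK, 4.89, 5.0, 4.56 and 5.24 in MYCN and 4.46, 4.51 and 4.53 in double transgenic tumours. All adrenal values exceeded all tumour values. It changed by -1.99 ± 0.27 (0.00014), -1.65 ± 0.26 (0.000191) and -2.08 ± 0.27 (6.61e-05). Col23a1, a transmembrane collagen too, changed by -0.88 ± 0.29 (0.0318), -1.06 ± 0.28 (0.00696) and -1.18 ± 0.29 (0.00565), the first not called without mutALK 2, mutALK 3 or adrenal 3 (-0.69 to -0.6, adjusted p 0.121 to 0.13). Col14a1, a fibril-associated collagen of tendon and skin, was lower in double transgenic tumours by 1.95 ± 0.51 than in adrenal gland (0.00749) and by 1.81 ± 0.48 than in MYCN tumours (0.0291). The difference from MYCN was lost without MYCN 1, 2 or 4 or double transgenic 2 or 3 (-1.8 to -1.42, 0.0519 to 0.128). Col22a1, a collagen of tissue junctions, fell by 0.45 ± 0.14 in double transgenic tumours (0.022), not called without adrenal 1, adrenal 3 or double transgenic 2 (-0.43 to -0.34, 0.0581 to 0.093). Col10a1, Col17a1, Col19a1, Col25a1 and Col26a1 were called in no comparison, and their values ran from 3.04 (Col17a1) to 6.92 (Col25a1). The other, dimmer probe set of Col25a1 was called lower in mutALK tumours than in adrenal gland (-1.27).

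Among genes that assemble collagen chains in the cell, nearly all calls against adrenal gland were lower. Of 19 assembly enzymes and chaperones measured, 8 were called lower and 1 higher in mutALK, 15 and none in MYCN and 13 and none in double transgenic tumours. Among all genes 21%, 24.8% and 24.2% were called lower in these comparisons and 21.3%, 25.4% and 24.3% higher. These shares are also the background for the lists below. Serpinh1, the chaperone HSP47 that binds the finished collagen helix, changed by -3.04 ± 0.5 (0.000481), -2.74 ± 0.47 (0.000403) and -4.15 ± 0.5 (3.54e-05). Plod2, a lysyl hydroxylase that prepares crosslinks, changed by -2.62 ± 0.38, -2.64 ± 0.36 and -2.66 ± 0.38, and Crtap, a subunit of the prolyl 3-hydroxylase complex, differed by -1.84 ± 0.19, -2.36 ± 0.18 and -2.48 ± 0.19. Sec23a, part of the coat that carries procollagen out of the endoplasmic reticulum, was higher in mutALK tumours by 0.77 ± 0.13 than in adrenal gland (0.000663) and by 1.39 ± 0.12 than in MYCN tumours (3.1e-05). Among tumours 2 of 19 were higher and 1 lower in double transgenic than in MYCN, and none higher and 5 lower than in mutALK. The median difference of the list between double transgenic and MYCN tumours was -0.01.

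Enzymes that mature and crosslink collagen outside the cell were lower in double transgenic tumours in part. Of 11 measured, 7 were lower than in adrenal gland, 1 than in MYCN and 5 than in mutALK tumours, and none was higher in any of these comparisons. Lox, the lysyl oxidase that crosslinks fibres, was lower than in MYCN (-1.69 ± 0.3, 0.00532) and than in mutALK tumours (-2.68 ± 0.32, 0.00119). Loxl1, a related oxidase active on elastic fibres, was lower than in mutALK tumours by 1.99 ± 0.28 (0.00261). Pcolce, which speeds the trimming of procollagen, changed against adrenal gland by -3.71 ± 0.37, -4.3 ± 0.35 and -5.32 ± 0.37 across the mutALK, MYCN and double transgenic groups. Tll2, a protease of the family that trims procollagen, was higher in mutALK by 3.3 ± 0.53 than in adrenal gland (0.000424) and by 3.87 ± 0.5 than in MYCN tumours (0.000209). In mutALK against MYCN tumours 5 of 11 were higher and none lower.

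The other basement membrane proteins moved in both directions. Of 14 measured, 4, 6 and 9 were lower and 1, 1 and 2 higher across the mutALK, MYCN and double transgenic groups than in adrenal gland, and 3 were higher and 3 lower in double transgenic than in MYCN tumours. Of all genes 21%, 24.8% and 24.2% were lower than in adrenal gland, and 6.16% higher and 6.66% lower in double transgenic than in MYCN tumours. Nid1, which links the laminin and type IV networks, was lower in double transgenic tumours by 1.25 ± 0.23 than in MYCN (0.00625) and by 1.85 ± 0.24 than in mutALK (0.00192). Without the 5 arrays high in liver transcripts the first was not called (adjusted p 0.0593). Sparc, which binds collagen, differed by -1.16 ± 0.24 (0.0102) and -1.56 ± 0.25 (0.00423) in the same comparisons. Agrn, a heparan sulfate proteoglycan of nerve and muscle, was higher in double transgenic tumours by 1.81 ± 0.23 than in adrenal gland (5.62e-05) and by 1.11 ± 0.22 than in MYCN (0.00847). In mutALK tumours Agrn was higher than in the same groups by 1.79 ± 0.23 (9.66e-05) and 1.08 ± 0.22 (0.00294). Its level was 10.31 ± 0.37 in mutALK and 10.34 ± 0.35 in double transgenic tumours. Fras1, a basement membrane protein of the embryo, exceeded adrenal gland by 3.49 ± 0.38 (1.75e-05), MYCN by 2.92 ± 0.36 (0.00102) and mutALK by 3.97 ± 0.38 (0.000467) in double transgenic tumours.

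Interstitial matrix proteins beside the collagens were lower in most calls. Of 23 measured, 5, 11 and 12 were lower and 3, 4 and 3 higher across the mutALK, MYCN and double transgenic groups than in adrenal gland. The 5 of 23 lower in mutALK tumours are near the 21% of all genes called lower there. In double transgenic tumours 3 were lower and none higher than in MYCN, and 5 lower and 2 higher than in mutALK. Mgp, a calcification inhibitor of vessel walls, differed by -2.64 ± 0.3 (0.000799) and -3.84 ± 0.32 (0.000214) from MYCN and mutALK tumours, and Bgn, a small proteoglycan on collagen fibrils, by -1.1 ± 0.22 (0.00967) and -2.28 ± 0.24 (0.000623). Fbln1 and Mfap2, proteins of elastic fibres and microfibrils, were higher in all tumour groups than in adrenal gland, by 1.93 ± 0.22, 2.56 ± 0.2 and 2.79 ± 0.22 for Fbln1 and 1.78 ± 0.18, 2.14 ± 0.17 and 1.85 ± 0.18 for Mfap2.

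Of 17 receptors for collagens and laminins, 5, 9 and 8 were lower and 3, 2 and 1 higher across the mutALK, MYCN and double transgenic groups than in adrenal gland. Read against the 21% of all genes lower and 21.3% higher in mutALK tumours, the mutALK counts are near the background. Itga1, the alpha chain of a collagen-binding integrin, was higher in mutALK tumours by 1.47 ± 0.3 than in adrenal gland (0.00181) and by 2.61 ± 0.28 than in MYCN tumours (7.22e-05). In double transgenic tumours it was lower by 2.55 ± 0.3 than in adrenal gland (2.65e-05), by 1.41 ± 0.28 than in MYCN (0.0082) and by 4.02 ± 0.3 than in mutALK (0.000109). Itga6, the alpha chain of laminin-binding integrins, changed by -2.06 ± 0.24, -2.46 ± 0.22 and -2.82 ± 0.24 in the tumour groups. Mrc2, an endocytic collagen receptor, was lower in double transgenic tumours by 1.02 ± 0.17 than in MYCN (0.00448) and by 1.67 ± 0.19 than in mutALK (0.000921). In double transgenic tumours 3 of 17 receptors were lower and none higher than in MYCN, and 2 lower and 1 higher than in mutALK.

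Of 21 matrix proteases and inhibitors, 4, 8 and 8 were lower and 5, 3 and 2 higher across the mutALK, MYCN and double transgenic groups than in adrenal gland. Both mutALK counts are near the shares of all genes, 21% lower and 21.3% higher. In mutALK against MYCN tumours 9 were higher and 1 lower (13.6% and 17.2% of all genes). Mmp8, the neutrophil collagenase, was higher in mutALK by 2.34 ± 0.31 than in adrenal gland (0.000114) and by 1.91 ± 0.29 than in MYCN tumours (0.000591). Mmp16, a membrane-bound protease of neural tissue, rose by 3.23 ± 0.31, 3.28 ± 0.29 and 2.54 ± 0.31 across the mutALK, MYCN and double transgenic groups. Mmp14, a membrane-bound protease that cuts fibrillar collagen, was lower in double transgenic tumours by 1.16 ± 0.19 than in mutALK (0.00398). None of 21 was called lower in double transgenic than in MYCN tumours and 3 were higher, and against mutALK tumours 6 were lower and none higher.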

How the data were processed

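RNA of 3 adrenal glands and 10 tumours was prepared with a QIAGEN kit, labelled with biotin and measured on Affymetrix mouse arrays, per the labels' protocols. The deposited log2 values were made by the authors with RMA (background correction, quantile normalization and summary per probe set) in Partek, per the submitters' processing notes. Versions are not given in the sources used here, and detection calls were not used.

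The table holds 45101 probe sets. Those with exactly 1 symbol in the platform annotation were used (34945, controls left out), of which most matched a RefSeq table of GRCm38.p6 and 0 symbols changed. Probe sets with several symbols (932) were left out. The brightest probe set on average stood for each gene, without a filter on low signal. Of the 52 collagen and laminin genes 33 have several probe sets. Of their 83 called differences 57 were also called the same way in another probe set, 0 the opposite way, and 26 in no other.

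Groups came from the genotype labels. One mean per group was fitted with limma 3.58.1 (lmFit, eBayes, 9 residual degrees of freedom) in R 4.3.3, with 6 two-sided contrasts, each adjusted over all genes. On simulated data with 200 changed genes the fit recovered 60 to 73% of changes of 1 log2 unit and 86 to 92% of those of 2, with 4 to 12 false calls. The small number of arrays limits the precision. Members, gene lists and tests were chosen with earlier results of these data known. All members are accounted for. Every fibrillar and basement membrane chain, and every other collagen called at least once, is named with values, and from each other list called genes were named from up to 4 per direction and comparison, by size. Alternatives were another quantile normalization, median centring, the mean of all probe sets, each probe set alone, the compared groups alone, array weights, robust eBayes with a variance trend, a filter that removes the dimmest 40% of genes, shared title numbers averaged or as a random block, and each array left out. Leaving out the 5 arrays with a liver marker mean above 8 was a further one. A fit lacking both adrenal 2 and double transgenic 1 was added after the data were seen. Motifs were searched on both strands. Figures were drawn with matplotlib 3.10.9.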

Additional observations from a re-analysis of the deposited data

Results flagged for a closer look

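Within the MYCN group of 4 arrays, 3 of 52 genes had 1 array far from the others by Dixon's ratio, which by chance marks about 1 in 20 groups. Col7a1 was 6.29 in MYCN 2, against 5.98 to 6.03 in the other 3. Col8a1 was 7.54 in MYCN 1, against 8.39 to 8.47. Col8a2 was 3.57 in MYCN 2, against 3.42 to 3.43. Col12a1 moved in opposite directions against adrenal gland, by 1.06 in mutALK and -1.03 in MYCN tumours. These tumour groups share the adrenal arrays as control, and the difference between them was 2.08 (limma, adjusted p = 0.000275). The 3 other probe sets of the gene were called in none of these comparisons, and differed between the tumour groups by -0.09 to 0.33.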

How the results depend on the processing

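Of 122 called differences of collagen and laminin genes 81 kept their call under all 25 other settings and 92 under those that keep all arrays, while 46 of 190 uncalled ones were called under at least 1. Most calls were lost without the 5 arrays high in liver transcripts (21) and with the compared groups alone (19). With the dimmest 40% of genes left out, where 27 of the 52 genes were tested, those called lower against adrenal gland numbered 10 for mutALK, 11 for MYCN and 19 for double transgenic tumours, 1 was lower in mutALK than in MYCN and 1 higher in double transgenic than in mutALK. The number higher in double transgenic than in MYCN arrays rose from 2 to 5 with array weights and to 4 with the compared groups alone, without the liver arrays or without adrenal 2 and double transgenic 1 together. Genes higher in MYCN than in adrenal gland rose from 2 to 5 with array weights and 4 without the liver arrays. The 2 genes lower in mutALK than in MYCN became 1 with the compared groups alone or without the liver arrays and 0 with shared title numbers averaged or blocked. The 2 higher in double transgenic than in mutALK became 1 with the compared groups alone, title numbers averaged, without the liver arrays, or without adrenal 2 and double transgenic 1 together, and the 16 lower became 9 with the compared groups alone. The cause was not tested. Without 1 array, counts ranged from 0 to 2 (lower in mutALK than MYCN), 2 to 4 (higher in double transgenic than MYCN), 6 to 11 (lower), 1 to 2 (higher in double transgenic than mutALK) and 8 to 17 (lower). Fibrillar minus basement membrane level, a median of 0.61 in adrenal gland, was 0.11 with means of the members and reversed to -0.07 with abundant chains alone. It was 2.32 with abundant chains in mutALK, 0.88 without dim genes, 0.89 with means and 1.0 with abundant chains in MYCN, and -0.09 without dim genes (reversed) and 0.81 with abundant chains in double transgenic arrays, so its order among groups depends on the summary. No paired analysis was possible because the tumour titles carry no replicate numbers, and those used here follow the order of samples.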
